A study of Mus musculus with 9 samples.

Results

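AMPA and kainate receptors are the ionotropic glutamate receptors that open as cation channels when glutamate binds, apart from the NMDA and delta classes. The 9 genes described here encode all of their subunits: Gria1 to Gria4 for the 4 AMPA receptor subunits GluA1 to GluA4, and Grik1 to Grik5 for the 5 kainate receptor subunits GluK1 to GluK5. They were chosen by name, with earlier results of these data known, as every probe set whose platform gene symbol is one of the 9. This gave 18 probe sets for 9 of the 18193 genes measured. All 9 symbols matched a RefSeq gene by Entrez identifier.

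Both receptor classes assemble as tetramers. In an AMPA receptor, an edited GluA2 subunit makes the channel nearly impermeable to calcium, while receptors without it pass calcium. GluK1, GluK2 and GluK3 can form channels alone, and GluK4 and GluK5 join them as high-affinity partners. In the brain these receptors are known best from neuronal synapses, and AMPA receptors are also found on oligodendrocyte precursors and on some astrocytes and progenitor cells.

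The study hybridised total RNA from 9 cultures of C57BL/6 mouse cells to Affymetrix arrays, with 3 cultures in each of 3 groups. Glioma stem cells (GSC) were grown from optic gliomas in the optic nerve of mice aged 3 months whose genotype label reads Nf1+/-GFAP CKO. Neural stem cells (NSC) made Nf1-null with a Cre virus were from Nf1flox/flox pups at postnatal day 1, taken from the third ventricle (TVZ). The cells called wild-type NSC came from pups of that same genotype and received LacZ virus instead, so they carry floxed Nf1 alleles too. All cultures grew unattached in medium with FGF and EGF, both at 20 ng/ml. Tumour origin, age, tissue, genotype and virus all differ between GSC and either NSC group, and their parts in a difference cannot be told apart. The labels do not say whether the 3 GSC arrays came from separate tumours or mice, so the p-values measure the spread between these arrays, which may be partly technical.

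The values were linear probe set signals, scaled to the same trimmed mean on every array, with array medians between 264.7 and 287.4. Their precision is limited by the number of arrays. No detection calls were used, so it is not known which signals below those medians were above background, and a fold change against such a group is that of the measured signals and not of a known level. Where a gene had several probe sets, the brightest over all 9 arrays stood for it. Differences were tested on log2(signal + 1) with limma across all 18193 genes, and a gene was said to rise or fall where its Benjamini-Hochberg adjusted p was under 0.05. The Nf1 probe set, which may lie outside the floxed part, read 548.9 to 622.6 in GSC, 430.3 to 645.8 in the Nf1-null NSC and 919.5 to 1139.5 in the wild-type NSC. Between Nf1-null and wild-type NSC that difference was -0.90 on the log2 scale, with an adjusted p of 0.123 in limma.

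Of 8 measured neural stem cell markers, 0 passed in GSC relative to Nf1-null NSC, and Hes1 rose and Msi1 fell relative to wild-type NSC. Their summed signal, most of it from Fabp7 and Vim, ranged from 224167.4 to 258574.1 in GSC, from 222659.8 to 261640.1 in the Nf1-null NSC and from 211034.9 to 274547.8 in the wild-type NSC. Gfap, the astrocyte filament gene named in the GSC genotype label, read 24.4 to 167.7 in GSC, against 158.5 to 3053.0 in the Nf1-null NSC and 923.1 to 3291.6 in the wild-type NSC. It passed in neither comparison (adjusted p = 0.294 and 0.0601 in limma). GSC overlapped Nf1-null NSC, whose arrays 2 and 3 read 200.6 and 158.5. These are bulk cultures, in which fewer cells of a type and less RNA per cell cannot be told apart. The first GSC array stood apart from the other 2 for several of the receptor genes, and its values are named where they do so.

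The subunits moved in opposite directions. In GSC, Gria4 was higher than in both NSC groups by over 10-fold and Gria1 was lower than in both by a similar factor. Grik1 was also higher than in both, Grik3 was higher than in Nf1-null NSC, and Gria3 was higher than in wild-type NSC. Gria2, the subunit that sets calcium permeability, passed the test in no comparison, nor did Grik2, Grik4 or Grik5. Of the 9 genes, 3 rose and 1 fell in GSC relative to Nf1-null NSC, where 0.671% of all genes rose and 1.08% fell. Relative to wild-type NSC, again 3 rose and 1 fell, where 3.46% of all genes rose and 5.6% fell. The median log2 difference of the 9 was 1.52 against Nf1-null NSC and 0.47 against wild-type NSC, while the medians of all genes were -0.04 and -0.09. Both comparisons use the same 3 GSC arrays, so they are not independent of each other.

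Gria4 encodes GluA4, an AMPA subunit found early in hippocampal development and later in fast-spiking interneurons and some cerebellar cells. Its brightest probe set read 9432.4, 24255.1 and 21555.8 in GSC, against 1410.7, 1103.6 and 996.3 in the Nf1-null NSC and 1499.2, 1434.4 and 1083.6 in the wild-type NSC. Even the lowest GSC array, the first, lay above every NSC array, and the 2 NSC groups overlapped. Gria4 rose by 3.88 ± 0.36 (SE) on the log2 scale relative to Nf1-null NSC, which is 14.7-fold, with an adjusted p of 0.00701 in limma. Relative to wild-type NSC it rose by 3.68 ± 0.36, or 12.8-fold, with an adjusted p of 0.00656. Leaving out any 1 of the 9 arrays kept both calls, with differences of 3.62 to 4.30 and 3.43 to 4.11. Fitted on the 6 arrays of a comparison alone, the adjusted p was 0.0535 against Nf1-null NSC, and with the array number as a block in those 6 arrays it was 0.211 there and 0.107 against wild-type NSC.

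**Figure D1:**
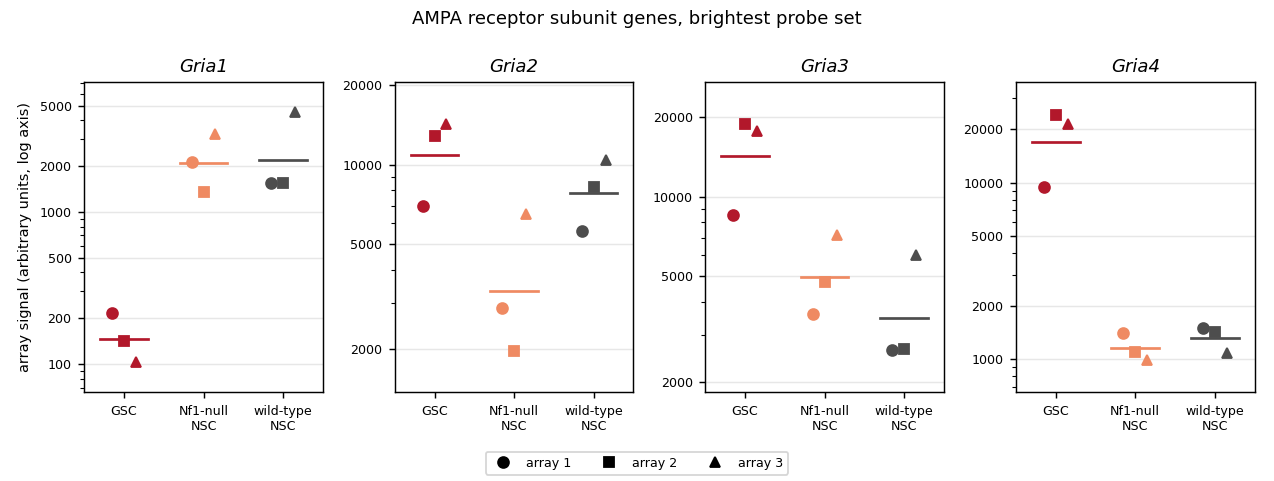
Signals of the AMPA receptor genes Gria1 to Gria4 by array. The vertical axis is the linear probe set signal on a log scale; GSC are on the left, Nf1-null NSC in the middle and wild-type NSC on the right, the marker shape gives the array number, and each horizontal line is the group's mean of log2 signals turned back to the linear scale. All 3 GSC arrays lie below all NSC arrays for Gria1 and above all NSC arrays for Gria3 and Gria4.

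As Gria4 was the 1 receptor gene that kept its call against both NSC groups whichever array was left out, the 250 bases before its annotated start are shown (RefSeq, GRCm38.p6, chr9:4796235-4796484, minus strand, 5′ to 3′). Capitals mark the single match to CANNTG, the core of the E-box bound by basic helix-loop-helix factors. The pattern CANNTG reads the same on both strands, while the match itself, CAGTTG, does not.
Gria4: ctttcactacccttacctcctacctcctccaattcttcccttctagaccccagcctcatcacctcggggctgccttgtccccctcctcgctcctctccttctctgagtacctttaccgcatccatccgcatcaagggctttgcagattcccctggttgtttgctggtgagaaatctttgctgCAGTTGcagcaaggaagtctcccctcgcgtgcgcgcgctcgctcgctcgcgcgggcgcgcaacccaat
The window held 16 CG dinucleotides, more than 74.6% of 32851 promoter windows of that length, whose median was 6. Of the 9 receptor genes, 6 matched an entry in the promoter table, namely Gria2, Gria4, Grik2, Grik3, Grik4 and Grik5. CANNTG occurred in 3 of these 6, in Gria2, Gria4 and Grik3, and in 66.2% of all the windows. A match of these letters is a description and not a binding site.

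Gria1 encodes GluA1, the AMPA subunit whose insertion into synapses accompanies long-term potentiation. It gave signals of 216.9, 142.1 and 102.9 in GSC, against 2123.3, 1358.8 and 3238.2 in the Nf1-null NSC and 1539.2, 1540.6 and 4531.7 in the wild-type NSC. The GSC arrays were all far below the lowest NSC array, and in both NSC groups the array numbered 3 was the highest. Gria1 was 14.2-fold lower in GSC than in Nf1-null NSC, a log2 difference of -3.83 ± 0.52 (SE) with an adjusted p of 0.0224 in limma. It was 14.9-fold lower than in wild-type NSC, a log2 difference of -3.90 ± 0.52 with an adjusted p of 0.0112. All 3 GSC signals lie below the array medians, where background is not known, so the true fold may be larger. The call against wild-type NSC was lost in limma only with the array number as a block in the 6 arrays compared (adjusted p = 0.111). The call against Nf1-null NSC was lost on the 6 arrays alone (adjusted p = 0.0578) and without GSC array 2 (-3.81), GSC array 3 (-3.58), Nf1-null array 1 (-3.83) or Nf1-null array 3 (-3.52), where limma's adjusted p lay between 0.0674 and 0.0889; with the block in those 6 arrays it was 0.211.

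Gria3 encodes GluA3, an X-linked AMPA subunit that usually pairs with GluA2. Its signals were 8513.4, 18806.7 and 17727.4 in GSC, against 3586.7, 4740.3 and 7128.8 in the Nf1-null NSC and 2623.8, 2666.5 and 6004.7 in the wild-type NSC. All 3 GSC arrays exceeded all 6 NSC arrays, the first GSC array by the least, and the 2 NSC groups overlapped. Relative to wild-type NSC, Gria3 rose by 2.03 ± 0.46 (SE) on the log2 scale, or 4.07-fold, with an adjusted p of 0.0368 in limma. Relative to Nf1-null NSC the difference was 1.52 with a 95% interval of 0.45 to 2.58, and limma's adjusted p of 0.162 missed the threshold. The call against wild-type NSC was lost without GSC array 2 (1.82), GSC array 3 (1.86), Nf1-null array 1 or 2 (2.03 in both cases), wild-type array 1 (1.82) or wild-type array 2 (1.83), with limma's adjusted p between 0.0509 and 0.124, and on the 6 arrays alone (0.0683). Xist, the noncoding RNA made from the inactive X chromosome, read 385.6 and 587.7 on the Nf1-null and wild-type arrays numbered 3, and 30974.5 or more on the other 7 arrays. GSC arrays were thus all high for Xist, while each NSC group was mixed. The arrays numbered 3 were the highest in their NSC groups for Gria3, and also for Gria1 and Gria2, which lie on chromosomes 11 and 3. The part of what Xist marks in the receptor values was not tested.

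Gria2 encodes GluA2. It gave 6964.9, 12857.5 and 14321.9 in GSC, against 2860.1, 1976.0 and 6528.6 in the Nf1-null NSC and 5592.7, 8217.0 and 10400.2 in the wild-type NSC. The lowest GSC array, the first, was only slightly above the highest Nf1-null array, and GSC and wild-type NSC overlapped. The log2 difference of GSC from Nf1-null NSC was 1.71 with a 95% interval of 0.56 to 2.85, and the adjusted p in limma was 0.146. From wild-type NSC it was 0.47 with an interval of -0.67 to 1.62 and an adjusted p of 0.593. For Gria2, then, the data leave room for a difference of several-fold from Nf1-null NSC and of up to about 3-fold from wild-type NSC.

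Among the channel-forming kainate subunits, Grik1 encodes GluK1, known from interneurons and sensory neurons. Its signals were 305.0, 783.4 and 782.9 in GSC, against 84.3, 96.5 and 29.1 in the Nf1-null NSC and 109.4, 98.9 and 75.8 in the wild-type NSC. The GSC arrays were again all higher than all NSC arrays, with the first the lowest of the 3. Grik1 rose by 3.18 ± 0.53 (SE) on the log2 scale relative to Nf1-null NSC, or 9.09-fold, with an adjusted p of 0.0375 in limma. Relative to wild-type NSC it rose by 2.60 ± 0.53, or 6.06-fold, with an adjusted p of 0.0299. Every NSC signal lies below the array medians, where background is not known, so both folds may be understated.

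Both Grik1 calls were close to the threshold. Against Nf1-null NSC the call was lost in 13 of 19 alternative fits. These include the array number as a block (adjusted p = 0.0727 in limma), the mean of both probe sets (0.112) and the 6 arrays alone (0.122). Leaving out GSC array 2 or 3 (2.96 each), Nf1-null array 1 (3.40), 2 (3.50) or 3 (2.65), or any single wild-type array (3.18) also ended it. Against wild-type NSC it was lost in 7 of 19, among them the mean of both probe sets (0.0849) and the fits without GSC array 2 or 3 (2.37 each) or wild-type array 1 (2.71), 2 (2.64) or 3 (2.45).

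Grik3 encodes GluK3, a kainate subunit with low sensitivity to glutamate. It gave 2207.8, 2497.2 and 2043.7 in GSC, against 781.7, 697.2 and 538.7 in the Nf1-null NSC and 1131.5, 1820.7 and 1722.1 in the wild-type NSC. None of the 3 groups overlapped: GSC arrays were the highest, wild-type NSC arrays came next and Nf1-null NSC arrays were the lowest. Grik3 rose by 1.75 ± 0.24 (SE) on the log2 scale in GSC relative to Nf1-null NSC, or 3.37-fold, with an adjusted p of 0.0222 in limma. From wild-type NSC the difference was 0.56 with a 95% interval of 0.01 to 1.10, and limma's adjusted p was 0.185. The call was lost on the 6 arrays alone (adjusted p = 0.0578) and without GSC array 2 (1.67), GSC array 3 (1.82) or Nf1-null array 1 (1.87), 2 (1.79) or 3 (1.60), with limma's adjusted p between 0.0520 and 0.0909. It was also lost with the mean of both probe sets (0.52, adjusted p = 0.573), of which the second is dim and opposite in sign.

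Grik2 encodes GluK2, the main kainate channel subunit of hippocampal pyramidal cells. It gave 426.9, 538.4 and 666.9 in GSC, against 706.1, 244.5 and 326.3 in the Nf1-null NSC and 1242.4, 847.1 and 808.1 in the wild-type NSC. GSC lay among the Nf1-null arrays and below all wild-type arrays. The log2 differences were 0.48 ± 0.40 from Nf1-null NSC and -0.82 ± 0.40 from wild-type NSC, with adjusted p of 0.608 and 0.240 in limma.

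The high-affinity subunits Grik4 (GluK4) and Grik5 (GluK5) passed in neither GSC comparison. Grik4 averaged 321 ± 86.7 in GSC, 389 ± 135 in the Nf1-null NSC and 579 ± 212 in the wild-type NSC (SD, n = 3 each). Grik5 averaged 462 ± 51.6 in GSC, 367 ± 162 in the Nf1-null NSC and 592 ± 155 in the wild-type NSC. For Grik4 the 95% intervals of the log2 difference from Nf1-null NSC ran from -1.13 to 0.61, and for Grik5 from -0.38 to 1.24, so that a 2-fold change in at least one direction lies inside each. From wild-type NSC the differences were -0.83 for Grik4 and -0.33 for Grik5, with adjusted p of 0.209 and 0.601 in limma.

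**Figure D2:**
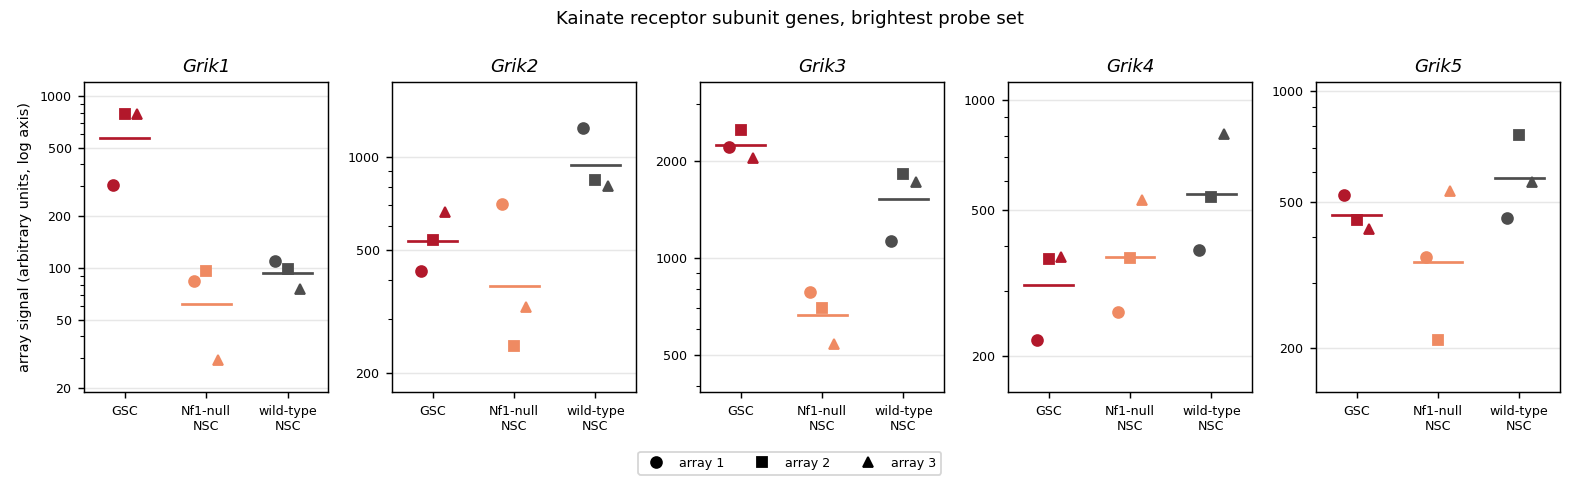
Signals of the kainate receptor genes Grik1 to Grik5 by array. The vertical axis is the linear probe set signal on a log scale; GSC are on the left, Nf1-null NSC in the middle and wild-type NSC on the right, the marker shape gives the array number, and each horizontal line is the group's mean of log2 signals turned back to the linear scale. Grik1 is higher on all 3 GSC arrays than on all NSC arrays, the 3 groups are separate for Grik3, and the other 3 genes overlap between GSC and Nf1-null NSC.

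Without regard to the test, GSC and Nf1-null NSC did not overlap for 6 of the 9 genes, against 21.9% of all genes. GSC and wild-type NSC did not overlap for 7 of the 9, against 34.8% of all genes. An exact permutation test on 3 arrays against 3 cannot give a two-sided p below 0.1. With the array number as a block in only the 6 arrays compared, 0 of the 9 genes passed in either GSC comparison in limma, and 0 of all 18193 genes did, so that fit separates no gene from another.

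**Figure D3:**
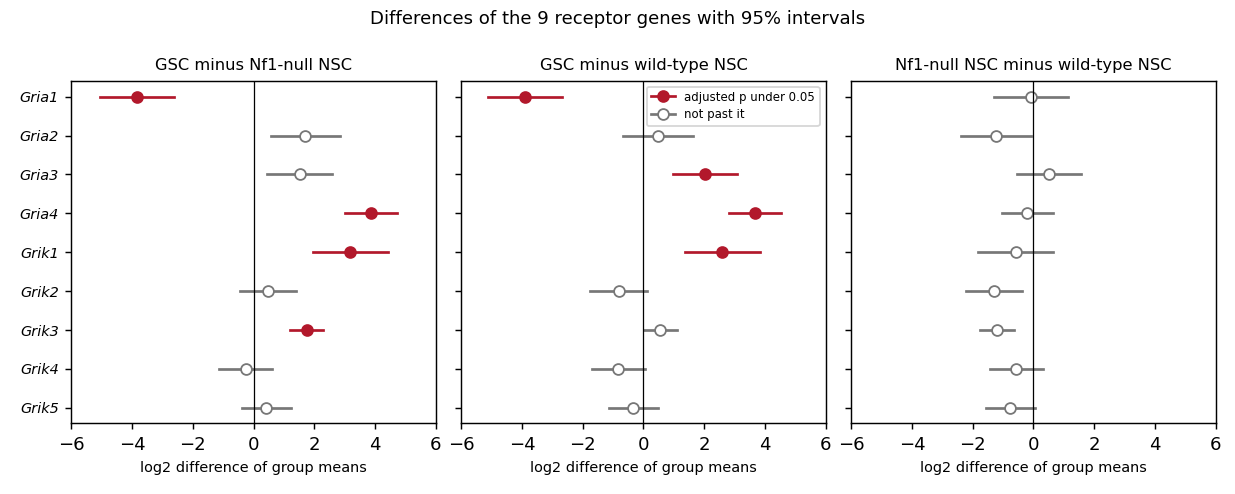
Log2 differences of the 9 receptor genes in the 3 comparisons, with 95% intervals from limma. Each row is a gene, filled red points have an adjusted p under 0.05 and open points do not. Gria1 lies near -3.83 and -3.90 and Gria4 near 3.88 and 3.68 in the comparisons of GSC, while no point is filled for Nf1-null against wild-type NSC.

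The further probe sets of a gene show whether its result depends on the one that stood for it. All 3 Gria4 probe sets rose in GSC and both Gria1 probe sets fell, in each comparison, when the 18 were tested among all 45037 probe sets. Of the 18, 6 passed against Nf1-null NSC, where 0.722% of all probe sets did, and 7 passed against wild-type NSC, where 4.69% did. With the array number as a block, 1 of the 18 passed against Nf1-null NSC, as did 0.346% of all probe sets. For Gria4, the next brightest probe set read 1119.3, 2984.1 and 2979.7 in GSC, against 222.3, 120.1 and 91.3 in the Nf1-null NSC and 179.7, 165.1 and 145.2 in the wild-type NSC, with no overlap between GSC and NSC. For Gria3, the second probe set passed against wild-type NSC (adjusted p = 0.0272 in limma) where the brightest, adjusted over probe sets, did not (0.0516). The brightest Grik1 probe set passed only against wild-type NSC (0.0411), with 0.0515 against Nf1-null NSC. The second Grik3 probe set stayed between 4.1 and 42.4 on all 9 arrays, at levels where replicates of dim genes vary most, and differed by -0.72 from Nf1-null NSC and by -0.56 from wild-type NSC, opposite in sign to the bright one.

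**Figure D4:**
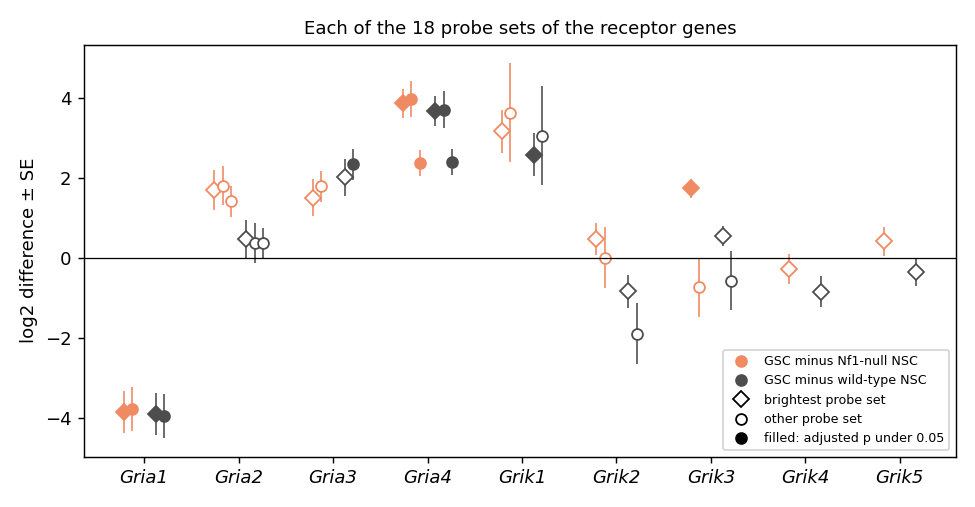
Log2 differences of GSC from each NSC group for the 18 probe sets of the 9 genes, with standard errors. Diamonds are the brightest probe set of each gene, and filled points have an adjusted p under 0.05 over all 45037 probe sets. The 3 Gria4 probe sets and the 2 Gria1 probe sets agree in sign with each other, and the 2 Grik3 probe sets do not.

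Setting Nf1-null NSC against wild-type NSC compares Cre virus with LacZ virus in cells of 1 origin. Loss of Nf1 and any other effect of the virus cannot be told apart in it. None of the 9 passed in limma, where 0% of all genes rose and 0% fell, and 0 of the 18 probe sets passed, against 0% of all probe sets. The smallest adjusted p of any gene was 0.0734. At an unadjusted p under 0.05 there were 3 of the 9 and 3048 of all genes. When limma was given a mean-variance trend, Grik3 alone of the 9 passed, with a difference of -1.20 and an adjusted p of 0.0344, against 0.110 without the trend, and 1.81% of all genes passed in that fit.

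Nf1-null NSC did not overlap wild-type NSC for 2 of the 9 genes, Grik3 and Grik2, against 23.8% of all genes. Grik3 was 2.29-fold lower in Nf1-null NSC, by -1.20 ± 0.24 (SE) on the log2 scale, and Grik2 differed by -1.30 ± 0.40 with an adjusted p of 0.195 in limma. Gria2 differed by -1.23 ± 0.49 with an adjusted p of 0.267. Taking arrays of the same number as pairs, Nf1-null NSC were lower in all 3 pairs for 7 of the 9 genes, against 27.7% of all genes. They were higher in all 3 for 1, Gria3, against 20.9% of all genes. These counts use the brightest probe set of each gene. The other Gria4 probe sets were each higher in 1 pair, with 222.3 against 179.7 for arrays 1 and 232.7 against 151.0 for arrays 2. The dim Grik3 probe set differed by 0.16. For Gria1 the difference was -0.07, or 0.015 with the arrays set to equal medians, with 2 pairs lower and 1 higher. With the pairs as a block 0 of the 9 and 0 of all genes passed in limma, and the smallest adjusted p among the 9 was 0.133, for Grik3. Gria4, which rose in GSC over both, differed between the NSC groups by -0.20 with a 95% interval of -1.04 to 0.65.

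As partners of the receptors, 12 AMPA and 2 kainate receptor auxiliary subunits and 13 scaffold and trafficking proteins were measured. Among them, 1 gene passed against Nf1-null NSC, where 1.75% of all genes did, and 5 against wild-type NSC, where 9.06% did. Of 12 measured AMPA receptor auxiliary subunits, which shape gating and surface delivery, 0 passed in GSC relative to Nf1-null NSC, and Shisa9 (CKAMP44) fell relative to wild-type NSC. Shisa9 read 564.1, 983.8 and 1714.7 in GSC, against 1624.2, 627.4 and 1232.7 in the Nf1-null NSC and 4735.1, 6330.8 and 3155.2 in the wild-type NSC. GSC thus overlapped Nf1-null NSC and lay below wild-type NSC, by 4.63-fold with an adjusted p of 0.0384 in limma. Shisa6, another auxiliary subunit, read 212.1, 1554.0 and 1625.4 in GSC, against 237.1, 112.9 and 92.1 in the Nf1-null NSC and 148.5, 63.6 and 102.6 in the wild-type NSC, and missed the threshold in both comparisons (adjusted p = 0.174 and 0.0597). Its first GSC array was at the NSC level, unlike the other 2.

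Neto1, a kainate receptor auxiliary subunit, rose in GSC relative to wild-type NSC. Its signals were 2402.8, 4111.7 and 3313.1 in GSC, against 2287.5, 2968.0 and 2222.2 in the Nf1-null NSC and 1628.6, 1521.0 and 1178.0 in the wild-type NSC. GSC lay above all wild-type arrays and overlapped Nf1-null arrays, and the rise over wild-type NSC was 2.24-fold with an adjusted p of 0.0318 in limma. Neto2, the other member of the pair, did not pass.

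Of 13 measured scaffold and trafficking proteins, 1 rose and 0 fell relative to Nf1-null NSC, where 0.671% of all genes rose and 1.08% fell. Relative to wild-type NSC, 1 rose and 2 fell, where 3.46% of all genes rose and 5.6% fell. Olfm2, a secreted olfactomedin found in AMPA receptor complexes, read 2886.1, 5798.5 and 6022.6 in GSC, against 652.2, 1196.7 and 860.9 in the Nf1-null NSC and 507.5, 646.6 and 529.0 in the wild-type NSC. Every GSC array exceeded every NSC array. Olfm2 rose 5.31-fold over Nf1-null NSC (adjusted p = 0.0251 in limma) and 8.33-fold over wild-type NSC (0.00814). Its relative Olfm3 read 87.0, 10.7 and 25.3 in GSC, against 281.3, 137.6 and 205.2 in the Nf1-null NSC and 480.0, 468.1 and 478.1 in the wild-type NSC. The 3 groups did not overlap, and the measured Olfm3 signal was 15.9-fold lower in GSC than in wild-type NSC (adjusted p = 0.0187 in limma). Its GSC signals are among the dimmest, and whether they are above background is not known. Pick1, a PDZ protein that binds GluA2 and GluA3 tails, was 2.05-fold lower in GSC than in wild-type NSC (adjusted p = 0.0477), but only by -0.21 on the log2 scale with the mean of all its probe sets, and its call was lost with quantile or median scaling (adjusted p = 0.0517 and 0.0573).

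Most of these partner calls were lost without certain single arrays. Against wild-type NSC, that of Olfm2 was kept whichever array was left out, and that of Olfm3 was lost without GSC array 3, wild-type array 2 or wild-type array 3, with differences between -4.0 and -3.89 in those fits. Against Nf1-null NSC, that of Olfm2 was lost without GSC array 2 (2.25), GSC array 3 (2.22), Nf1-null array 1 (2.20), Nf1-null array 3 (2.40) or wild-type array 2 (2.41). Neto1 was lost without GSC array 2 (0.98), GSC array 3 (1.14), Nf1-null array 1 (1.16) or wild-type array 1 (1.26), 2 (1.21) or 3 (1.02). Shisa9 was kept only without Nf1-null array 2 and otherwise lay between -2.61 and -1.81, and Pick1 was kept only without GSC array 1 (-1.28) and otherwise lay between -1.14 and -0.85.

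Other glutamate receptor classes did not pass the test. All 6 measured NMDA receptor subunits had positive differences in GSC in both comparisons, with medians of 0.79 and 0.84. Of all genes, 53.2% had a negative difference from Nf1-null NSC and 56.1% from wild-type NSC. The NMDA subunit gene Grin1 was listed but not among those measured. Every signal of Grin2a, Grin2b and Grin2c lay below the array medians, and their groups overlapped. Of the 6 subunits, 0 passed. The nearest, Grin3a, read 1649.7, 3563.4 and 4120.4 in GSC, against 624.8, 693.1 and 1156.6 in the Nf1-null NSC and 1161.7, 1536.4 and 1363.2 in the wild-type NSC. GSC did not overlap either NSC group for Grin3a, with an adjusted p of 0.0663 and 0.117 in limma. Of the 6 measured metabotropic receptors, the 1 delta receptor and the 3 genes of the RNA editing enzyme family, 0 passed in either comparison. That family includes the enzyme that recodes the GluA2 transcript. None of the partner or other receptor genes passed between Nf1-null and wild-type NSC in limma.

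**Figure D5:**
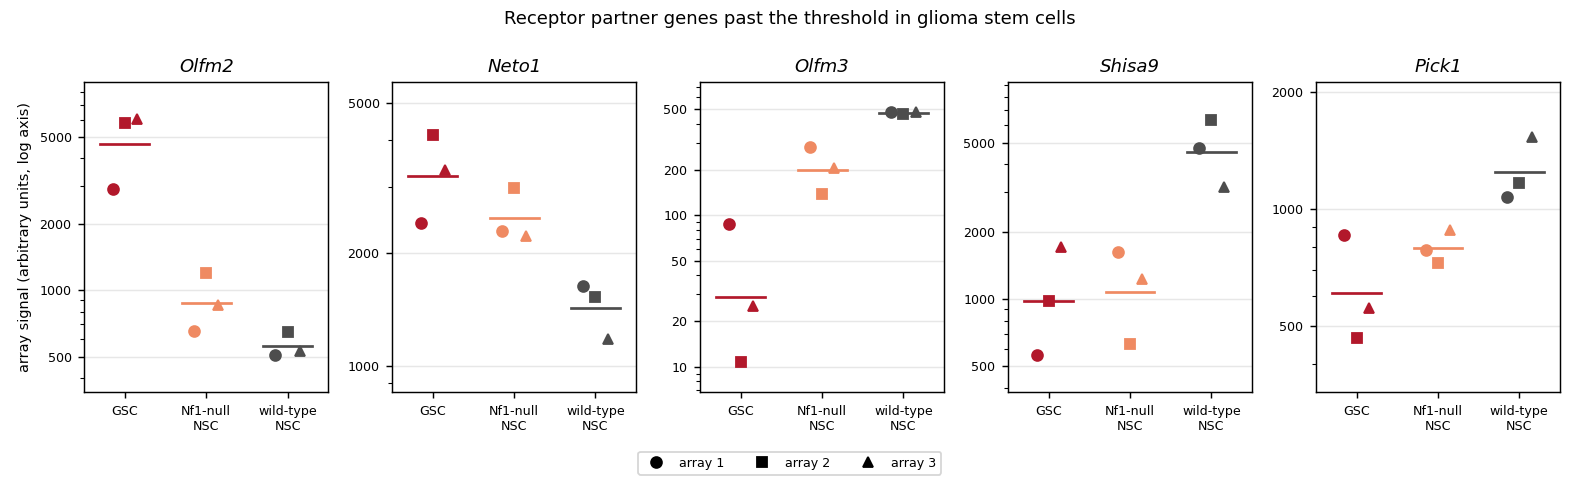
Signals by array of the partner genes that passed in a GSC comparison: Olfm2, Neto1, Olfm3, Shisa9 and Pick1. The vertical axis is the linear probe set signal on a log scale, with GSC on the left, Nf1-null NSC in the middle and wild-type NSC on the right, the marker shape for the array number and a horizontal line at the group's mean of log2 signals turned back to the linear scale. Olfm2 lies above and Olfm3 below all NSC arrays in GSC, and Shisa9 and Neto1 overlap between GSC and Nf1-null NSC.

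Markers of other cell types differed between the groups beside these results, in fits where 1.75% of all genes passed against Nf1-null NSC and 9.06% against wild-type NSC. Of 9 astrocyte markers, 3 fell in GSC relative to Nf1-null NSC and 5 relative to wild-type NSC, and their summed signal ranged from 100822.3 to 132586.4 in GSC, from 112712.1 to 193345 in the Nf1-null NSC and from 230722.3 to 281031.9 in the wild-type NSC. Aldh1l1, an astrocyte enzyme and one of those that fell, read 239.5 to 660.4 in GSC, against 25833.2 to 40852.5 in the Nf1-null NSC and 32418.4 to 43185.6 in the wild-type NSC. S100b, another marker on that list, went the other way without passing: it read 17467.7 to 34245.9 in GSC, against 3070.8 to 10179.4 in the Nf1-null NSC and 4451.4 to 11308.3 in the wild-type NSC. Of 9 measured oligodendrocyte precursor markers, 2 rose relative to Nf1-null NSC and 0 passed relative to wild-type NSC. The 9, mostly Olig1 and Olig2 by signal, summed to 150504.7 to 161362.1 in GSC, 94018.1 to 120861.2 in the Nf1-null NSC and 142086.1 to 165725.2 in the wild-type NSC. Set against wild-type NSC, Nf1-null NSC had negative differences for all 9 of these markers, all 9 astrocyte markers and 10 of 14 neuronal markers. The same held for 8 of the 9 receptor genes, against 55.5% of all genes. The other marker lists were mixed or mostly positive. Negative were 5 of 8 neural stem cell, 3 of 7 mature oligodendrocyte, 4 of 8 microglial and 1 of 6 endothelial markers.

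Of 14 neuronal markers, 1 rose relative to Nf1-null NSC and 3 fell relative to wild-type NSC. Their sums, mostly Map2 by signal, were 42783.4 to 49290.4 in GSC, 47509.5 to 48630.4 in the Nf1-null NSC and 55580 to 64999 in the wild-type NSC. The differences from Nf1-null NSC were positive for 7 of the 14 and negative for the other 7. The neuronal tubulin gene Tubb3, the 1 that rose, read 1329.7 to 2194.1 in GSC, against 260.0 to 496.7 in the Nf1-null NSC and 569.2 to 1057.2 in the wild-type NSC. From wild-type NSC the differences were positive for 6 of the 14 and negative for 8. Those that fell were Rbfox3, Snap25 and Slc17a6. Rbfox3 read 107.8 to 347.2 in GSC and 790.2 to 1612.8 in the wild-type NSC, and Snap25 174.1 to 320.4 and 768.9 to 939.5. The glutamatergic neuron marker Slc17a6 read 9.1 to 11.9 in GSC, against 12.5 to 75.9 in the Nf1-null NSC and 40.8 to 149.3 in the wild-type NSC. All Slc17a6 signals lie below the array medians, where background is not known. Of 7 measured mature oligodendrocyte markers, 1, Opalin, fell relative to Nf1-null NSC and 0 passed relative to wild-type NSC. The differences were positive for 4 and negative for 3 from Nf1-null NSC, and positive for 3 and negative for 4 from wild-type NSC. Their sums, mostly Mbp and Cnp, were 27107.2 to 92917.6 in GSC, 20447.8 to 45310.2 in the Nf1-null NSC and 42645.8 to 63664.8 in the wild-type NSC. Mbp did not pass. It read 2601.3, 29057.3 and 65239.2 in GSC, against 189.2 to 376.5 in the Nf1-null NSC and 495.4 to 6599.4 in the wild-type NSC. None of the 8 microglial and 6 endothelial markers passed. No marker was listed at 0 on any array, and the part of these markers in the receptor differences was not tested.

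Genes alike to each receptor gene that passed were sought among genes with a mean log2 signal at or above the median of all genes. Clone and gene-model names were left out. Those whose signals ran most alike over the 9 arrays are named by Pearson's r on the log2 scale. These values describe 9 arrays that fall in 3 groups and share their scaling, and no p is given. For Gria4 they were Raph1 (0.99), Mtarc2 (0.99), Cela1 (0.98) and the sterol transporter gene Abcg1 (0.98). For Grik1 they were Raph1 (0.98), Adamts5 (0.97), Fam104a (0.97) and Gria4 itself (0.96). For Gria1 they were Arnt (0.98), Nebl (0.98), the dystrophin gene Dmd (0.98) and Aldh1l1 (0.98). For Gria3 they were Rgs7bp (0.99), Uqcr10 (0.98), Idh3a (0.98) and H1f2 (0.98), and for Grik3 the homeobox gene Nkx2-2 (0.97), Slitrk2 (0.96), Tmem234 (0.93) and Dock3 (0.93). Gria4 and Grik1 thus shared Raph1 as their nearest gene among those searched.

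Without the first GSC array, 4 of the 9 genes passed in each GSC comparison, as with it. The differences then were 4.30 and 4.11 for Gria4, -4.11 and -4.18 for Gria1, 3.64 and 3.05 for Grik1, and 1.88 and 2.39 for Gria3, from Nf1-null and wild-type NSC in that order. Gria3 had an adjusted p of 0.0769 in limma against Nf1-null NSC in that fit, and Gria2 one of 0.0928. The number of the 9 genes that passed was 1 without GSC array 2, GSC array 3, Nf1-null array 1 or Nf1-null array 3 against Nf1-null NSC, and 2 without Nf1-null array 2, and in these fits 0.396% to 0.577% of all genes passed, against 3.96% without GSC array 1. Against wild-type NSC it was 2 without GSC array 2, GSC array 3, wild-type array 1 or wild-type array 2, where 1.18% to 4.83% of all genes passed, against 9.65% without GSC array 1. Gria4 was in each of these sets.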

How the data were processed

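Total RNA of 9 cultures was hybridised to Affymetrix arrays as biotinylated cRNA made from 100 ng, per the labels' protocols. The deposited intensity values were linear signals that the authors had scaled to the same 2% trimmed mean on every array. The software and summary method are not given in the sources used here. Array medians ran from 264.7 to 287.4. Of 45101 probe sets, 64 controls were left out. GEO's platform annotation gave 34945 of the rest 1 symbol, 932 several and 9160 none. The 34945 gave 18193 genes, each represented by its brightest probe set.

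Values were tested as log2(signal + 1) with limma 3.58.1 in R 4.3.3 (lmFit and eBayes without trend, 3 group means, all 9 arrays, 6 residual and 1.63 prior degrees of freedom), with p-values adjusted by Benjamini-Hochberg over all genes, or over 45037 probe sets in a fit of its own. The fitting code was tested on simulated data. Signals at the dim end vary more between replicates, and the pseudocount of 1 leaves them nearly unshrunk.

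The receptor genes, the 7 partner and receptor lists and the 7 marker lists were chosen with earlier results of these data known. Named were all 9 receptor genes, the list genes that passed, and the 4 genes most alike to each receptor gene that passed. The last were sought only among genes at or above the median mean log2 signal, without clone and gene-model names. Alternatives were a pseudocount of 16, a mean-variance trend, quantile and median scaling, other probe set rules, a filter on the dimmest 25%, fits on 6 arrays, the array number as a block and leaving out each array.

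Array numbers were checked as pairs on the brighter genes. Nf1-null and wild-type NSC of the same number deviated together (r = 0.64, 0.24 and 0.59), and those of different numbers gave -0.54 to -0.02. Each group was first centred on its own mean, so positive same-number values force negative values between different numbers. The negative values are thus no separate support for pairs. For GSC and Nf1-null NSC of the same number the values were 0.30, 0.12 and 0.11. Arrays 2 and 3 of these groups gave as much when crossed, 0.09 and 0.11. For GSC and wild-type NSC of the same number the values were 0.24, 0.05 and 0.20, and GSC array 2 with wild-type array 3 gave 0.19. The numbers thus do not clearly pair GSC with either NSC group. The labels do not state what the numbers share, so the pairing of the NSC groups comes from the data.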

Additional observations from a re-analysis of the deposited data

How the results depend on the processing

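Each count and each difference of the 9 receptor genes was refitted under 19 alternatives. The number of the 9 that passed for GSC against Nf1-null NSC, 4 as reported, was 2 with the mean of all probe sets, 0 on the 6 arrays alone, 0 with the array number as a block in those 6 arrays, 3 with the block in all 9, and 1 to 4 with an array left out. The share of all genes that passed, 1.75% as reported, moved too, to 0.819%, 0.159%, 0% and 1.06% in the first 4 of these fits and to between 0.396% and 3.96% with an array left out. For GSC against wild-type NSC, 4 as reported, it was 3 on the 6 arrays alone, 0 with the block in those 6, 5 with the block in all 9 (Grik4 was added, -0.83 with an adjusted p of 0.0413 in limma), and 2 to 4 with an array left out. Of all genes, 9.06% passed as reported, and 5.66%, 0%, 8.44% and between 1.18% and 9.65% did in those fits. The array numbers do not clearly pair GSC with either NSC group. For Nf1-null against wild-type NSC, 0 as reported, it was 1 with the mean-variance trend, where 1.81% of all genes passed, and 0 with the block or with an array left out. Of the 18 probe sets, 10 passed against Nf1-null NSC with the trend, 0 on the 6 arrays alone, 1 with the block, 0 with the block in the 6 arrays and 1 to 7 with an array left out, against 6 as reported, while 2.9%, 0.0933%, 0.346%, 0% and between 0.151% and 2.03% of all probe sets passed, against 0.722%. Against wild-type NSC, 7 as reported, 0 passed with the block in the 6 arrays and 1 to 8 with an array left out (0% and between 0.282% and 5.4% of all probe sets), and between the NSC groups 1 passed with the trend (1.01%). Fits on 6 arrays have fewer residual degrees of freedom, and the other causes were not tested. Signs changed only for Grik3 in GSC against wild-type NSC, -0.0034 with the mean of both probe sets, and for Gria1 between the NSC groups, which was 0.015 with equal medians, 0.25 without Nf1-null array 2 and 0.45 without wild-type array 3, within a range of -0.38 to 0.45 over the fits with an array left out. With 3 arrays a group and a large replicate spread in dim genes, a gene that missed the threshold may still differ.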
